A study of Mus musculus with 2 samples.

Results

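The cells described here were the T and natural killer (NK) lymphocytes of the KPCA.FSTKO ovarian tumor, 76 of the 6777 barcodes that passed the quality filters of that library. Each had at least 3 unique molecular identifiers (UMIs, counted single RNA molecules) summed over 8 lymphoid genes (Cd3e, Cd3d, Cd3g, Trac, Trbc2, Ncr1, Klrb1c and Klre1) and at least 1 UMI of Ptprc, the pan-leukocyte gene for CD45. Fewer than 5 UMIs of the macrophage genes C1qa, C1qb and C1qc and less than 0.1% of UMIs from the epithelial keratins Krt7, Krt8, Krt18 and Krt19 were allowed. The cells were thus chosen by the measured UMIs of these 16 genes, whose levels are given as description only.

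KPCA is a syngeneic mouse model of high-grade serous ovarian carcinoma, made from fallopian tube epithelial cells whose engineered changes include mutant Trp53 and overexpression of Ccne1 and Akt2. In KPCA.FSTKO cells Fst (follistatin, a secreted activin antagonist) is knocked out, and KPCA.FSTKO_hFSTL3 is a stable clone of those same knockout cells with a plasmid for human FSTL3 (follistatin-like 3, a related antagonist). Both lines were injected intraperitoneally into adult female C57BL/6J mice, whose own cells carry neither change, and the omental tumors, for which no drug is named, were dissociated at day 10. Each genotype gave 1 single-cell 3′ RNA library from 4 pooled tumors, so that no test between genotypes is possible, cells are not replicates, and every interval below covers counting error only.

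The KPCA.FSTKO library held 168214773 UMIs in 7582 barcodes and the KPCA.FSTKO_hFSTL3 library 80391504 UMIs in 4244 barcodes. The number of barcodes shared by the libraries was 12, with 0 of them lymphocytes. The 76 lymphocytes carried 507062 UMIs with a median of 4737.5 per cell (2209 to 29163), against a median of 17253 for all kept barcodes of the library. The median lymphocyte had 2043.5 genes and 3.14% mitochondrial UMIs. Fst gave 1 UMI and mouse Fstl3 gave 1 UMI in the 76 cells, and both gave 0 UMIs in the lymphocytes of the KPCA.FSTKO_hFSTL3 library. The edit is in the grafted cells and not in the host's lymphocytes, and a 3′ tag need not lie in the deleted part, so these counts check no genotype label.

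T cells recognize antigen through a receptor whose alpha and beta chains (constant regions Trac, Trbc1 and Trbc2) signal through the CD3 chains Cd3e, Cd3d and Cd3g. CD4 helper cells see peptides on MHC class II and include Foxp3-positive regulatory cells, while CD8 cells see peptides on class I and kill through perforin and granzymes. NK cells kill with the same granules, but read activating and inhibitory receptors in place of a rearranged antigen receptor. In tumors, CD8 cells under long stimulation are known to take up the inhibitory receptors PD-1 (Pdcd1), TIM-3 (Havcr2) and LAG-3 (Lag3) while keeping granzymes.

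The promoters of 3 granzyme genes that were higher in CD8 than in CD4 cells are printed first, because killing is the function that CD8 and NK cells are known for. Each line gives the 250 bases before the transcript start in RefSeq on GRCm38.p6, 5′ to 3′ on the strand of the gene. The windows are those of Gzmb at chr14:56262335-56262584, Gzmc at chr14:56234658-56234907 and Gzmf at chr14:56211408-56211657, neighbors on the minus strand. The GENCODE annotation, used for gene positions elsewhere in the text, starts Gzmb 74 bases and Gzmc 1 base later and has the last 10 bases of the Gzmf window inside the gene. Capitals mark the RUNX core TGTGGT, which reads as ACCACA on the opposite strand, chosen because Runx3 encodes a factor of this kind in CD8 and NK cells.
Gzmb: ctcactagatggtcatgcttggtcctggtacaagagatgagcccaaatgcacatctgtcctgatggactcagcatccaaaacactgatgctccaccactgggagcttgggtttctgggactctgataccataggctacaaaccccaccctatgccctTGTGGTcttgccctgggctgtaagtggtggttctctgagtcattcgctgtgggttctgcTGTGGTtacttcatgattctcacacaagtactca
Gzmc: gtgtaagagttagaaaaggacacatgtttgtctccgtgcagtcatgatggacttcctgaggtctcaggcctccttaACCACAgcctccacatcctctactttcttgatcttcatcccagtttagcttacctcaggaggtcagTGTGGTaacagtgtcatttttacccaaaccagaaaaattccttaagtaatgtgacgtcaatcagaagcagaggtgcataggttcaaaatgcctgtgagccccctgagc
Gzmf: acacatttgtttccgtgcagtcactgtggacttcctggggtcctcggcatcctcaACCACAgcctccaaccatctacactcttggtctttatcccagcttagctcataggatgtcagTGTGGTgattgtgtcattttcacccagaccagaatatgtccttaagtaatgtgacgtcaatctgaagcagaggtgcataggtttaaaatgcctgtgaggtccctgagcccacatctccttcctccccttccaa
The RUNX letters occurred in 3 of the 3 windows, with 2 matches each, against 14.0% of 32851 promoter windows of the same length. The T-box letters AGGTGTGA, which read as TCACACCT on the opposite strand and were searched because Tbx21 encodes a T-box factor, occurred in 0 of the 3, against 1.12% of all windows. The Gzmc and Gzmf windows share long runs of bases, so they are not separate observations. Windows of other genes higher in CD8 cells, such as Nkg7 and Prf1, are not shown, so 3 of 3 is not a count over such genes. A match is a description of letters and not a site of binding.

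The lymphoid genes were spread over most of the 76 cells. Cd3g gave 385 UMIs in 67 cells, Cd3d 306 UMIs in 65 cells and Cd3e 138 UMIs in 53 cells. Of the receptor genes, Trbc2 gave 333 UMIs in 63 cells and Trac 145 UMIs in 47 cells. Trbc1, which the choice of cells did not use, gave 235 UMIs in 37 cells. Trbc1 and Trbc2 are near-identical copies, so their split is uncertain and Trbc1 UMIs are not independent of the choice. The NK genes were much thinner. Ncr1, which encodes the NK receptor NKp46, gave only 4 UMIs in 4 cells, while Klrb1c (NK1.1) gave 42 UMIs in 12 cells and Klre1 gave 28 UMIs in 13 cells. At least 1 UMI of these 3 genes, which also chose the cells, was present in 19 of the 76.

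Among the members, 3 cells had exactly 3 UMIs of the 8 genes, 4 had 4 and 69 had 5 or more. Just outside it, 4 barcodes had 2 UMIs and met every other condition, and of these 1 had a UMI of Nkg7, 1 of Cd2 and 0 of Ccl5. Of 87 barcodes with at least 3 lymphoid UMIs, 11 were kept out: 3 for lack of Ptprc, 2 for C1q and 6 for keratin. The kept-out barcodes had a median of 12073 UMIs and held 12 Cd8 and 9 Cd4 UMIs together. Those kept out for C1q or keratin were deeper than the members (medians of 22454.5 and 23614 UMIs), and those without Ptprc were not (3598 UMIs).

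By surface genes the cells fell into 4 subsets that did not share Cd4 and Cd8. Of the 76, 70 had a CD3 UMI. The CD8 subset, with a UMI of Cd8a or Cd8b1, held 31 cells (40.8%, exact 95% interval 29.6 to 52.7). The CD4 subset held 22 cells (28.9%, 19.1 to 40.5). A further 17 CD3-positive cells (22.4%, 13.6 to 33.4) had UMIs of neither coreceptor, and 0 cells had UMIs of both, which allows a share of cells with both UMIs of up to 3.95% (3 cells). The CD3-negative cells numbered 6 (7.89%, 2.95 to 16.4), of which 5 had a UMI of an NK gene. Cd4 gave few UMIs per cell, 42 in 22 cells, so cells without a Cd4 UMI need not lack CD4. Median depth was 6044 UMIs in the CD8 subset, 5052 in the CD4 subset, 3924 in the cells with neither and 4673 in the CD3-negative cells.

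**Figure D1:**
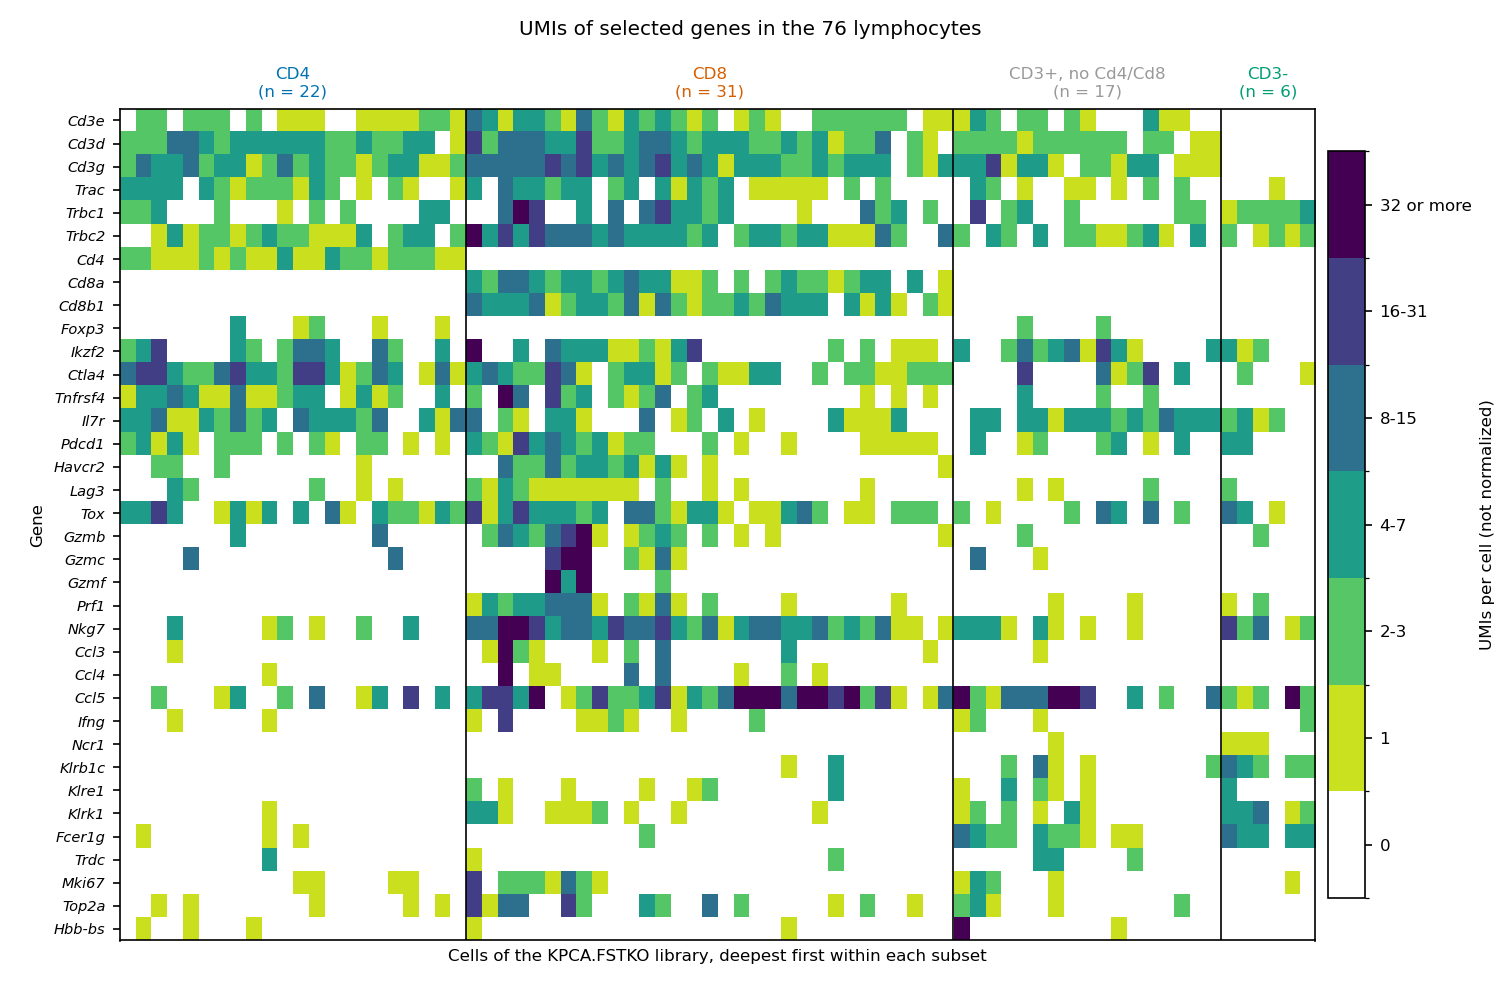
Counts of UMIs per cell (color, not normalized) for selected genes (rows) in the 76 KPCA.FSTKO lymphocytes (columns), deepest cell first within each subset. Each of the 31 CD8 cells has Cd8a or Cd8b1, and both rows are empty elsewhere. Gzmb, Gzmc and Gzmf peak in a few CD8 cells, and the 6 CD3-negative cells at the right carry Trbc1, 5 of them with Klrk1 and Fcer1g.

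Set against all 6701 other kept barcodes of the same library, the lymphocytes showed a T cell program with killing and inhibitory receptor genes. Levels are UMIs summed over cells and scaled to the summed total (CPM), and a gene is called higher or lower by size alone, where both sides together hold 50 UMIs or more and the CPM differ by 2-fold or more. Of 15764 genes measured, 3042 (19.3%) were higher in the lymphocytes and 5479 (34.8%) were lower, with a median log2 ratio of -0.24 over all genes. Where the interval of the ratio also had to leave out 1, 2225 (14.1%) and 1957 (12.4%) were left. The contrast follows from how the cells were chosen and is a description.

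The T cell core list had 17 of 17 genes higher (median log2 ratio 9.71), among them 5 genes that chose the cells. Bcl11b, a transcription factor of T cell commitment, had 115 UMIs in 45 of 76 lymphocytes and 7 UMIs in all other barcodes (log2 ratio 12.16, 95% interval 11.08 to 13.51). Skap1, an adaptor of T cell adhesion, was seen in 73 of the 76 cells. All 7 measured cytotoxic genes were higher (median 11.02). Prf1, the pore-forming perforin, had 82 UMIs in the lymphocytes against 4 elsewhere (log2 ratio 12.48, 11.07 to 14.39), and Nkg7, a protein of cytotoxic granules, had 430 against 41 (11.52, 11.05 to 12.02). Both genes were therefore almost wholly in these 76 cells. The granzyme genes Gzmc (203 against 17 UMIs, 11.70) and Gzmf (158 against 9, 12.26) were as specific but uneven, with 108 of the Gzmf UMIs in 1 cell. These 2 genes are near copies, and reads that fit both could be lost to either.

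Receptors of activation and inhibition moved the same way by size. The checkpoint list had 11 of 11 genes higher, the costimulation list 7 of 7 and the cytokine receptor list 12 of 12. Set against C1q-rich barcodes alone, Havcr2 (23.7% against 45.7%), Entpd1 and Cd244a of the checkpoint list were seen in a smaller share of lymphocytes. Entpd1 (CD39) was seen in 28.9% of lymphocytes and 59.0% of C1q-rich barcodes, and Cd244a (2B4) in 18.4% and 37.1%. C1q-rich barcodes were deeper, with a median of 13548.5 UMIs. After thinning to 1000 UMIs the shares were 6.58% and 9.77% for Entpd1, and 2.63% and 5.08% for Cd244a. For Havcr2 the order turned, with 7.89% of lymphocytes (2.95 to 16.4) and 4.82% of C1q-rich barcodes (3.43 to 6.56). Pdcd1 (PD-1) had 132 UMIs against 23 elsewhere (log2 ratio 10.65), and Il2rb, a shared chain of the IL-2 and IL-15 receptors, had 168 against 49 (9.90) and was seen in 59 cells. The regulatory T list had 6 of 7 measured genes higher, the naive and memory list 8 of 9 and the residence and traffic list 8 of 8. The NK list was mixed, with 7 genes higher, 2 lower and 3 within 2-fold among 12 measured. Fcer1g, Tyrobp and Fcgr3 of that list are also macrophage genes. Among the innate lymphoid and gamma-delta genes, 2 were higher, 2 lower and 2 within 2-fold, and among the helper genes 4 were higher, 2 lower and 2 within. The effector list had 6 of 6 higher, but Tnf had only 4 UMIs (log2 ratio 1.51) and was lower than elsewhere when CPM was averaged per cell (-0.25).

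Activin and TGF-beta reception, the pathway that FST and FSTL3 act on, was not set apart. Of 14 genes of that list, 2 were higher, 2 lower and 10 within 2-fold (median -0.19). The TGF-beta receptor Tgfbr2 had 95 UMIs in 48 lymphocytes and was higher than elsewhere (log2 ratio 1.41, 1.11 to 1.70). The activin receptor Acvr2a had 11 UMIs in 8 of the 76 cells, 21.7 CPM (10.8 to 38.8), against 29.2 CPM in all other barcodes. Acvr2b gave 0 UMIs, where 3 UMIs would be 5.92 CPM, above its level elsewhere, so such a level was not detectable at this depth, and its place among the 2 lower genes rests on that 0. Inhba, which encodes the activin A subunit, had 5 UMIs in 3 lymphocytes (9.86 CPM) against 64.4 CPM elsewhere. Of the proliferation genes only Mki67 was higher (1 of 10), and of the interferon genes 3 of 9 were.

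Most marker genes of other cells were lower in the lymphocytes than elsewhere or at 0, with exceptions. Neutrophil genes (4 of 4) and mast cell genes (3 of 3) gave 0 UMIs, and the dendritic and B cell lists gave 1 UMI (Xcr1) and 2 UMIs (Cd79b). S100a9 had 0 UMIs, which makes it at least 11.6-fold lower than in the other barcodes, and the macrophage integrin Itgam was at least 13.0-fold lower. The macrophage list had 130 UMIs over 9 of its 10 genes (256 CPM against 3704 CPM elsewhere) with Apoe at the top, and the cancer list 166 UMIs over 6 of 6 genes (327 against 3240 CPM) with Krt18 at the top. The stromal list had 301 UMIs (594 against 2064 CPM), of which Col3a1 made 233. The endothelial list was above its level elsewhere, with 31 UMIs (61.1 against 26.5 CPM), 28 of them of Pecam1 (CD31), which leukocytes are also known to carry. By size alone Xcr1, Cd79b and the acinar gene Cel were also higher, on 1, 2 and 1 UMIs. Of 14 acinar genes measured 8 were lower and 5 were within 2-fold, as were Cdh5 and the 3 erythroid genes. Erythroid genes gave 785 UMIs, but 776 of them lay in 1 cell without Cd4 or Cd8 (16653 UMIs in all, with 561 of Hbb-bs). Their part in the results was not tested, and leaving that cell out ended no call of a count.

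Killing, effector and division genes were higher in the CD8 than in the CD4 subset. Of 1366 genes measured, 92 (6.73%) were higher in CD8 cells and 100 (7.32%) were lower, with a median log2 ratio of 0.02. The interval of the ratio left out 1 for 91 (6.66%) and 100 of them. Trimmed-mean scaling (TMM) moved the median by 0.16 and the split to 121 higher and 69 lower. The CD8 subset held 276048 UMIs and the CD4 subset 119624, so a gene could reach 50 UMIs through CD8 cells alone. Of the 10 cytotoxic genes 5 reached it and 5 were higher, of the 8 effector genes 3 and 3, and of the 10 proliferation genes 4 and 4, which the limit of 50 UMIs largely fixes. Summed over the whole list with no limit, cytotoxic genes were at 3148 CPM (2942 to 3364) in CD8 and 585 CPM (456 to 739) in CD4 cells. Effector genes were at 4434 against 418 CPM, with 577 of the 1224 UMIs in 1 CD8 cell, and proliferation genes had 320 UMIs (1159 CPM), 85 of them in 1 CD8 cell, against 24 UMIs.

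Nkg7 was seen in nearly every CD8 cell. In the 31 CD8 cells it ranged from 0 to 78 UMIs with a median of 8, and in the 22 CD4 cells from 0 to 5 with a median of 0. It was present in 30 CD8 cells and 6 CD4 cells, so the groups overlapped at the low end. Its level was 1261 CPM against 142 CPM (log2 ratio 3.15, 2.45 to 3.95), and 2.89 without its highest cell. Ccl5, a chemokine that draws T cells, ranged from 0 to 69 UMIs (median 8) in CD8 cells and from 0 to 18 (median 0) in CD4 cells. It was present in 29 and 9 cells, and the log2 ratio was 2.48 (2.05 to 2.96).

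Prf1 was found in CD8 and not in CD4 cells. It had 76 UMIs in 16 of 31 CD8 cells (0 to 14, median 1) and 0 UMIs in the 22 CD4 cells, which makes it at least 11.0-fold higher with 3 UMIs as the floor of the CD4 subset. Gzmb, a granzyme that triggers apoptosis, ranged from 0 to 54 UMIs (median 1) in CD8 cells and from 0 to 11 (median 0) in CD4 cells. It was present in 16 and 2 cells (log2 ratio 1.79, 1.04 to 2.64, and 1.08 without its highest cell). Gzmb lies at chr14:56258838-56262260, and Gzmc and Gzmf lie beside it on the same strand. Those 2 were concentrated in fewer cells. Gzmc had 174 against 18 UMIs (log2 ratio 2.07), and Gzmf had 158 UMIs in 4 CD8 cells against 0 (at least 22.8-fold), of which 1 cell held 68.4%. The 3 CD8 cells richest in granzymes held 11, 24 and 54 Gzmb UMIs, 20, 72 and 69 Gzmc UMIs, and 42, 6 and 108 Gzmf UMIs. The same 3 cells had 10, 14 and 8 Prf1 UMIs, so granzymes and perforin were high together in them by raw count. These cells held 14927, 14341 and 14250 UMIs, against a CD8 subset median of 6044. Depth thus moved with these counts, and its part was not tested.

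The chemokine genes Ccl3 and Ccl4, neighbors on chromosome 11, were higher in CD8 cells, and 1 cell set most of the size. Ccl4 had 363 UMIs in CD8 cells against 1 in CD4 cells (log2 ratio 7.30, 4.81 to 12.60), and 339 of them lay in 1 CD8 cell. Ccl3 had 217 against 1 (6.56, 4.06 to 11.87), with 191 in that same cell, which also held 22 of the 31 Ifng UMIs of the subset, 78 of Nkg7 and 53 of Ccl1. Without its top cell the log2 ratio was 3.48 for Ccl4 and 3.60 for Ccl3, and that of Ccl1 changed sign to -0.21. Ifng, the effector cytokine of type 1 responses, was otherwise sparse, present in 8 of 31 CD8 and 2 of 22 CD4 cells.

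Further genes higher in CD8 cells had various roles. Atp8b4, a lipid-transport ATPase, had 68 UMIs in 25 CD8 cells against 1 UMI (log2 ratio 4.88), and Dscam, an adhesion molecule, had 67 UMIs in 7 CD8 cells against 2 (3.86, and 2.71 without its top cell). Runx3, a transcription factor of the CD8 lineage, had 107 against 12 UMIs (log2 ratio 1.95). Klrd1 (CD94), a receptor shared with NK cells, had 78 against 6 (2.49), and Ctsw, a protease of cytotoxic granules, 84 against 7 (2.38). Division genes were higher as well. Top2a (topoisomerase) had 82 against 5 UMIs (2.83) and Mki67 had 55 against 4 (2.57), with 30 of the Mki67 UMIs in the deepest CD8 cell, and its log2 ratio was 1.60 without that cell. At least 5 UMIs over the 10 proliferation genes were present in 11 of 31 CD8 cells and 0 of 22 CD4 cells. These 11 cells had a median of 14927 UMIs and included the 9 deepest CD8 cells, while the other 20 had a median of 4475.5, so depth moved with this count, and its part was not tested. The share of cells with a Top2a UMI was 41.9% of CD8 and 22.7% of CD4 cells, against 48.1% of keratin-rich barcodes, whose median depth was 26007 UMIs. With each cell thinned to 1000 UMIs the shares were 16.1%, 9.09% and 11.1%.

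**Figure D2:**
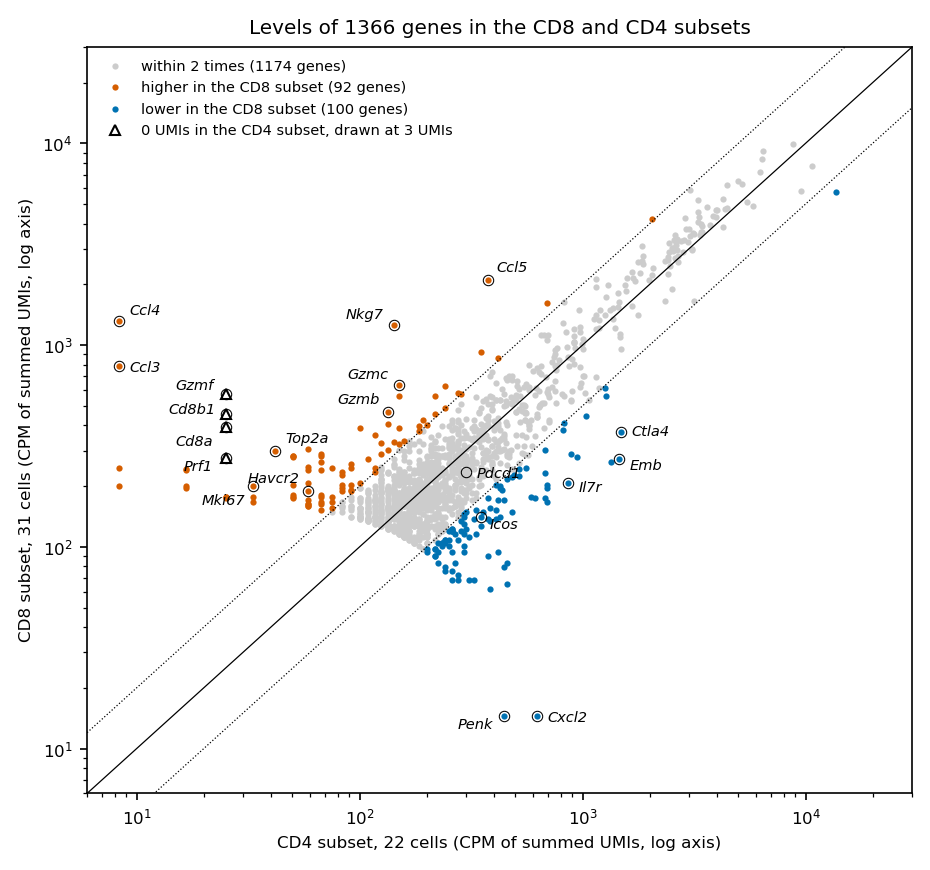
Level of each of 1366 genes in the CD8 subset (31 cells, y axis) against the CD4 subset (22 cells, x axis), both as CPM of summed UMIs on log axes, with dotted lines at a 2-fold ratio. Triangles are genes with 0 UMIs in the CD4 subset, drawn at 3 UMIs, and Nkg7 and Ccl5 lie above the upper line while Ctla4 and Il7r lie below the lower one.

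Il7r and Ctla4 were higher in CD4 cells. Il7r, the IL-7 receptor that sustains resting T cells, ranged from 0 to 10 UMIs (median 4.5) in CD4 cells and from 0 to 12 (median 1) in CD8 cells. It was present in 19 of 22 and 16 of 31 cells, and the log2 ratio of CD8 over CD4 was -2.06 (-2.55 to -1.58). Ctla4, an inhibitory receptor that competes with CD28, had 178 UMIs in 21 CD4 cells (median 5.5) and 102 in 26 CD8 cells (median 2), with a log2 ratio of -2.01 (-2.38 to -1.65). The ranges of the subsets overlapped in both genes. With each cell thinned to 1000 UMIs, Il7r was seen in 59.1% of CD4 and 22.6% of CD8 cells and Ctla4 in 63.6% and 38.7%. Of 7 costimulation genes 6 reached 50 UMIs, and Cd28 (-1.12) and Icos (-1.31) were lower in CD8 cells, Cd226 was higher (1.00), and 3 were within 2-fold. Without the top cell of each gene Cd28 (-0.87) and Cd226 (0.88) were within 2-fold too, and Icos (-1.15) was still lower. Runx1, a transcription factor of T cell differentiation, had 161 UMIs in 22 of 22 CD4 cells and 73 UMIs in 21 CD8 cells (-2.35). Emb, an adhesion protein, had a log2 ratio of -2.42, Zfp36l1, an RNA-decay protein, -2.46 and Ifi27l2a, an interferon target, -2.64. Penk, the precursor of enkephalin, had 53 UMIs in 7 CD4 cells and 4 UMIs in 2 CD8 cells (-4.93). Cxcl2, Egr1 and Col3a1 were also lower in CD8 cells, but 85.3%, 92.7% and 92.9% of their CD4 UMIs lay in 1 cell each. Without its top cell Cxcl2 had a log2 ratio of -2.92, and Egr1 (0.71) and Col3a1 (2.57) changed sign.

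Inhibitory receptors were common in both subsets. At least 1 of Pdcd1, Havcr2, Lag3, Tigit and Ctla4 was seen in 28 of 31 CD8 cells, 22 of 22 CD4 cells and 10 of 17 cells with neither coreceptor. At least 3 of the 5 were seen in 16, 7 and 5 cells. Pdcd1 ranged from 0 to 16 UMIs (median 1) in CD8 cells and from 0 to 7 (median 1) in CD4 cells, and was present in 20 of 31 (64.5%) and 15 of 22 (68.2%), with 0.127% of C1q-rich and 0.164% of keratin-rich barcodes as the background. Its log2 ratio of CD8 over CD4 was -0.35 (-0.96 to 0.28), an interval that holds 0. Tox, a factor of exhausted T cells, was seen in 26 CD8 and 17 CD4 cells, and was within 2-fold (log2 ratio -0.50). Of 11 checkpoint genes 4 reached 50 UMIs, and of these only Havcr2 was higher in CD8 cells and only Ctla4 lower.

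Havcr2 (TIM-3) was seen mostly in CD8 cells that also held Gzmb. It had 52 UMIs in 14 CD8 cells and 7 UMIs in 4 CD4 cells (log2 ratio 1.69, 0.54 to 3.07). Of the 14 CD8 cells with Havcr2, 13 also had Gzmb and 12 had Prf1, and 11 had Pdcd1. By contrast 3 CD8 cells had Gzmb without Havcr2, and 9 had Pdcd1 without Havcr2. The 14 cells had a median of 10673.5 UMIs and the other 17 CD8 cells one of 4350, so depth moved with these pairs of genes, and its part was not tested. With each cell thinned to 1000 UMIs, Havcr2 was seen in 6.45% of CD8 and 4.55% of CD4 cells, that is, 2 cells and 1 cell. Before thinning, the share of CD8 cells with a Havcr2 UMI (45.2%) was near that of C1q-rich barcodes (45.7%), whose median depth was 13548.5 UMIs. After thinning, the C1q-rich share was 4.82% (3.43 to 6.56), within the interval of the CD8 share (0.791 to 21.4). Macrophages are known to carry TIM-3. Lag3 was seen in 15 CD8 cells (48.4%) and 5 CD4 cells (22.7%). After thinning these 2 shares were 9.68% and 9.09%, that is, 3 and 2 cells. The thinned shares were 67.7% against 13.6% for Nkg7, whose intervals do not overlap, and 25.8% against 9.09% for Gzmb, whose intervals do. In the thinned counts Pdcd1 was seen in 16.1% of CD8 and 45.5% of CD4 cells.

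**Figure D3:**
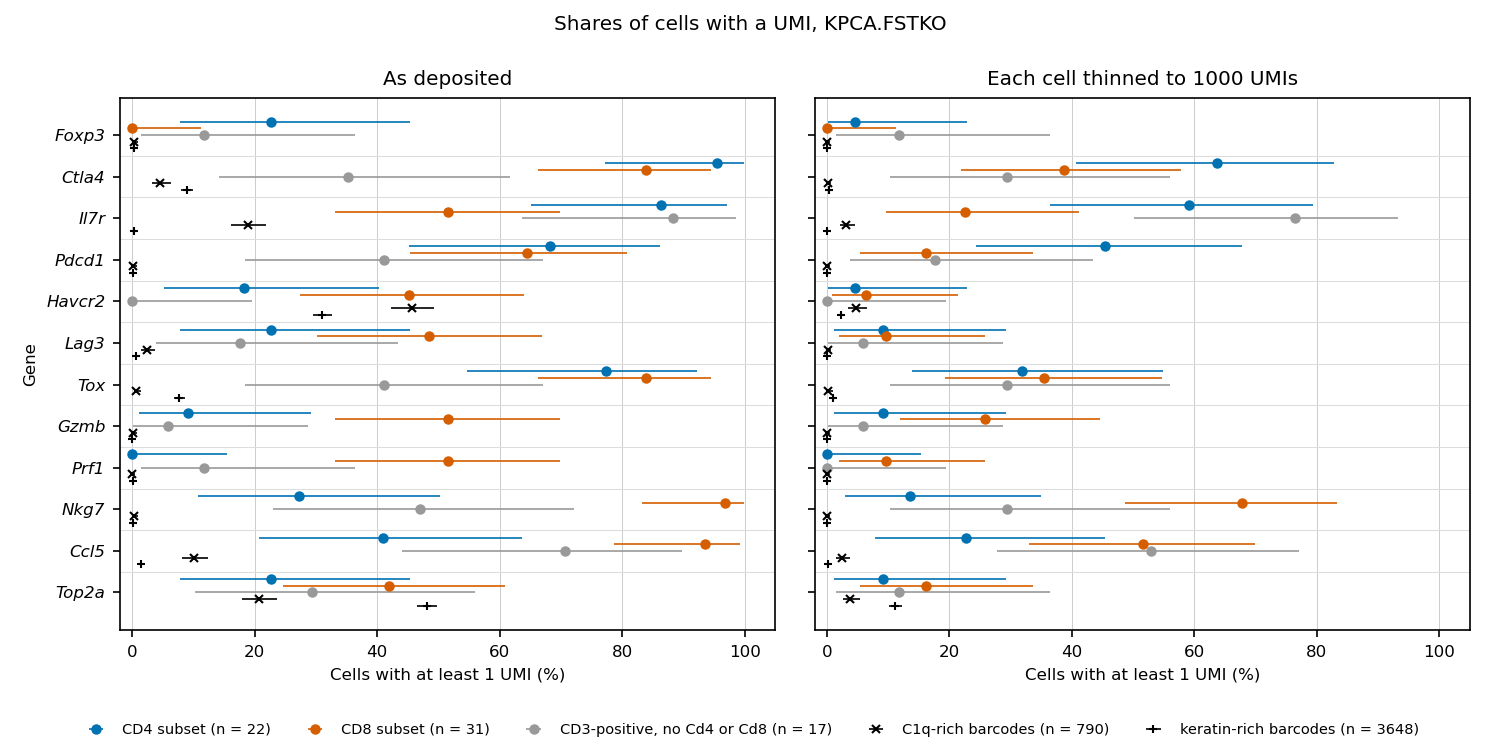
Share of cells with at least 1 UMI of each of 12 genes (x axis, percent) in the 3 CD3-positive subsets and in C1q-rich and keratin-rich barcodes of KPCA.FSTKO, as deposited (left) and with each cell thinned to 1000 UMIs (right). Bars are exact 95% intervals for counting error. The Nkg7 bars of CD8 and CD4 cells do not overlap in either panel, and those of Ccl5 overlap only after thinning. In the left panel the Havcr2 share of CD8 cells lies at that of the C1q-rich barcodes.

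A regulatory pattern was present in a few CD4 cells. Foxp3, the factor that defines regulatory T cells, gave 17 UMIs in 7 of the 76 lymphocytes, 5 in the CD4 subset (22.7%, 7.82 to 45.4) and 2 with neither coreceptor. It gave 0 UMIs in the 31 CD8 cells, and was seen in 0.253% of C1q-rich and 0.356% of keratin-rich barcodes. With each cell thinned to 1000 UMIs in 1 draw the share in CD4 cells was 4.55%, that is, 1 cell. All 7 cells had Ctla4 (9 to 23 UMIs each), Ikzf2 (Helios), Tnfrsf4 (OX40), Tnfrsf18 (GITR) and Il7r. Ctla4 was at 3491 CPM in these 7 cells against 784 CPM in the 32 CD3-positive cells with neither Foxp3 nor Cd8 UMIs. Ikzf2 was at 2503 against 454 CPM and Tnfrsf4 at 1120 against 253 CPM, with like median depth in both groups (4545 and 4485 UMIs). The cells with Foxp3 were richer in all 3 genes. Il2ra (CD25) was seen in 3 of the 7, and Cd40lg, the ligand by which helper cells activate B cells and macrophages, in 1 of 7.

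Helper genes other than these were mostly sparse. Stat4 of the helper list was an exception, with 92 UMIs in 29 of the 39 KPCA.FSTKO CD3-positive cells without Cd8 UMIs. Gata3, a factor of type 2 helper cells, had 27 UMIs in 11 CD4 cells (226 CPM, against 39.8 CPM in CD8 cells), and Tbx21 (T-bet), the factor of type 1 cells, 13 UMIs in 6. Cd40lg gave 13 UMIs in 6 CD4 cells and 0 in CD8 cells. Rora, a nuclear receptor of several helper and innate lymphoid types, was broad, with 141 UMIs in 20 of 22 CD4 cells. Il17a, the cytokine that names type 17 cells, gave 0 UMIs in the 76 cells. The counts per cell were too low to sort single CD4 cells into helper types.

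Summed as a group, the 17 CD3-positive cells with neither coreceptor held both Il7r and Ccl5, though not each cell did. The cell rich in Hbb-bs, for one, had 35 Ccl5 UMIs and 0 of Il7r. Il7r was present in 15 of them (908 CPM, 712 to 1138) and Ccl5 in 12 (2376 CPM, 2051 to 2738), while CD4 cells had 376 CPM of Ccl5 and CD8 cells 206 CPM of Il7r. The CD3-negative cells as a group had both genes too, with Ccl5 in 5 of 6 (1323 CPM, 949 to 1794) and Il7r in 4 of 6 (323 CPM, 155 to 593). Most of that Ccl5 level was 1 cell with 33 UMIs (median 2), which had 0 UMIs of Il7r. Lef1, a factor of naive and early memory cells, had 27 UMIs in 13 of the 17 (336 CPM, 221 to 489), against 58.5 CPM in CD4 and 145 CPM in CD8 cells. Fcer1g, an adaptor of innate receptors, gave 34 UMIs in 10 of the 17, 3 UMIs in the CD4 subset and 2 in the CD8 subset. Klrb1c was seen in 5 of the 17, 2 of 31 CD8 and 0 of 22 CD4 cells, and Trdc, the constant region of the gamma-delta receptor, in 3 of the 17, 2 CD8 cells and 1 CD4 cell. The macrophage list was at 498 CPM here (Apoe at the top), against 276 CPM in CD4 and 178 CPM in CD8 cells, and Fcer1g is also a macrophage gene. Its part in the Fcer1g value was not tested. Fcer1g was at 423 CPM in these cells and 1523 CPM in C1q-rich barcodes.

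Of the 6 CD3-negative cells, 5 carried both NK and T cell genes. Every one of the 6 had a UMI of a T cell receptor constant gene, Trbc1 in 6 of 6, Trbc2 in 5 of 6 and Trac in 1. Of the 4 Ncr1 UMIs noted above, 3 were here. Ncr1, Klrb1c and Klre1 helped to choose these cells, so their UMIs do not bear on the name, while Klrk1 and Fcer1g were not used. In the first cell (9061 UMIs) Klrb1c had 9 UMIs, Klre1 5, Klrk1 5, Fcer1g 13, Nkg7 18 and Ncr1 1. In the second (5324 UMIs) Klrb1c had 4, Klrk1 5, Fcer1g 4 and Ncr1 1. The third (4739 UMIs) had Klrk1 8, Nkg7 12, Fcer1g 5, Prf1 3, Gzmb 2 and Ncr1 1. These 3 had the most NK genes. The fifth (4080 UMIs) and sixth (3185 UMIs) had Klrb1c 3 and 2, Klrk1 1 and 2, Rora 18 and 6, and Ccl5 33 and 3, with no Ncr1. The fourth (4607 UMIs) had no NK gene, Klrk1 or Nkg7 UMI, and 3 UMIs (Trac 1, Trbc2 2), the smallest number the rule allows, placed it among the lymphocytes. It is called CD3-negative only by the absence of the 3 CD3 genes at its depth.

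Against the 70 CD3-positive cells, 136 of 1880 measured genes (7.23%) were higher in the 6 cells and 333 (17.7%) lower, with a median of -0.09. With the interval required to leave out 1, 96 (5.11%) higher and 75 (3.99%) lower genes were left. TMM moved the median by -0.47 and the split to 40 higher and 581 lower, so both numbers depend on the scaling. Of 18 NK genes 4 reached 50 UMIs, and 3 of them were higher. Fcer1g had 31 UMIs in 5 of 6 cells and 39 UMIs in 14 of 70 (log2 ratio 3.61, 2.88 to 4.33). Klrk1 (NKG2D), an activating receptor, had 21 UMIs in 5 cells and 38 in 17 (3.09, 2.24 to 3.89), and Il2rb 20 and 148 (1.05). With TMM the log2 ratios were 3.14, 2.61 and 0.58, so Il2rb was then within 2-fold. The sum of the 18 NK genes followed the same order, at 4807 CPM in CD3-negative cells, 2376 CPM in the cells with neither coreceptor, 1018 CPM in CD8 cells and 426 CPM in CD4 cells. Of those 18 genes, 3 chose the cells.

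Among T cell core genes 11 of 17 were lower in the CD3-negative cells and 6 were within 2-fold. The 3 CD3 genes are at 0 by definition, Trac and Trbc2 helped to choose the cells, and a gene could reach 50 UMIs through the CD3-positive cells alone (476066 against 30996 UMIs). Summed over the whole list the level was 3484 CPM (2858 to 4207) in the CD3-negative cells, and 6637, 6626 and 5274 CPM in the CD4 subset, the CD8 subset and the cells with neither coreceptor. Bcl11b had 2 UMIs against 113 (64.5 against 237 CPM, ratio 0.272, 0.0325 to 1.00) and Trac 1 against 144 (log2 ratio -3.23, -8.54 to -0.73). Themis, a protein of T cell selection, had 0 UMIs against 267 (at least 5.79-fold lower). Of 10 cytotoxic genes 5 reached 50 UMIs, with 1 higher, 2 lower and 2 within 2-fold. The higher one, Ctsw, was within 2-fold (0.69) without its top cell. Nkg7 was within 2-fold, at 1194 CPM against 826 CPM in the CD3-positive cells. Gzmb had 2 UMIs (-2.26 against CD3-positive cells, -5.32 to -0.38) and Gzmc had 0 (at least 4.41-fold lower). Ctla4 was lower too, with 4 UMIs against 341 (-2.47).

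The second library, from KPCA.FSTKO_hFSTL3 tumors, held 14 lymphocytes by the same rule. They were 0.346% of 4041 kept barcodes (0.190 to 0.581), against 1.12% (0.885 to 1.40) in KPCA.FSTKO, and 0.970% of the 1443 barcodes with a Ptprc UMI (0.531 to 1.62) against 6.07% of 1253 (4.81 to 7.53). The intervals do not overlap, but with mitochondrial UMIs under 10% the shares of kept barcodes were 0.803% (0.440 to 1.34) and 1.18% (0.930 to 1.48), and these overlap. All cover the counting of cells in 1 library each, and tumor, dissociation and capture cannot be told apart from genotype. The libraries also differed in these classes. Keratin-rich barcodes were 53.8% of KPCA.FSTKO and 20.5% of KPCA.FSTKO_hFSTL3, C1q-rich barcodes 11.7% and 3.69%, and the median mitochondrial share 3.54% and 10.7%. Barcodes that reached both the keratin and the C1q limit are counted in neither class. C1q-rich and other Ptprc-positive barcodes numbered 790 and 256 in KPCA.FSTKO, and 149 and 38 in KPCA.FSTKO_hFSTL3. Most of the 1443 barcodes with a Ptprc UMI thus lay outside these 2 classes, so the shares of Ptprc barcodes rest on unlike totals. In the second library 13 of 27 barcodes with at least 3 lymphoid UMIs were kept out, 12 for C1q, 11 for keratin and 4 for lack of Ptprc. A barcode could fail on more than 1 of these, and the 13 held 1 Cd8 UMI.

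A Cd8 UMI was present in 0 of the 14 cells, which allows a share of cells with such a UMI of up to 21.4% (3 cells), against 40.8% (29.6 to 52.7) in KPCA.FSTKO. Cells without a Cd8 UMI need not lack CD8. The CD4 subset held 6 cells (42.9%, 17.7 to 71.1), 7 had neither coreceptor (50%, 23.0 to 77.0) and 1 was CD3-negative. Cd8b1 and Cd8a gave 0 UMIs and were at least 8.73-fold and 7.49-fold lower. Median depth was 3929 UMIs, against 4737.5.

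**Figure D4:**
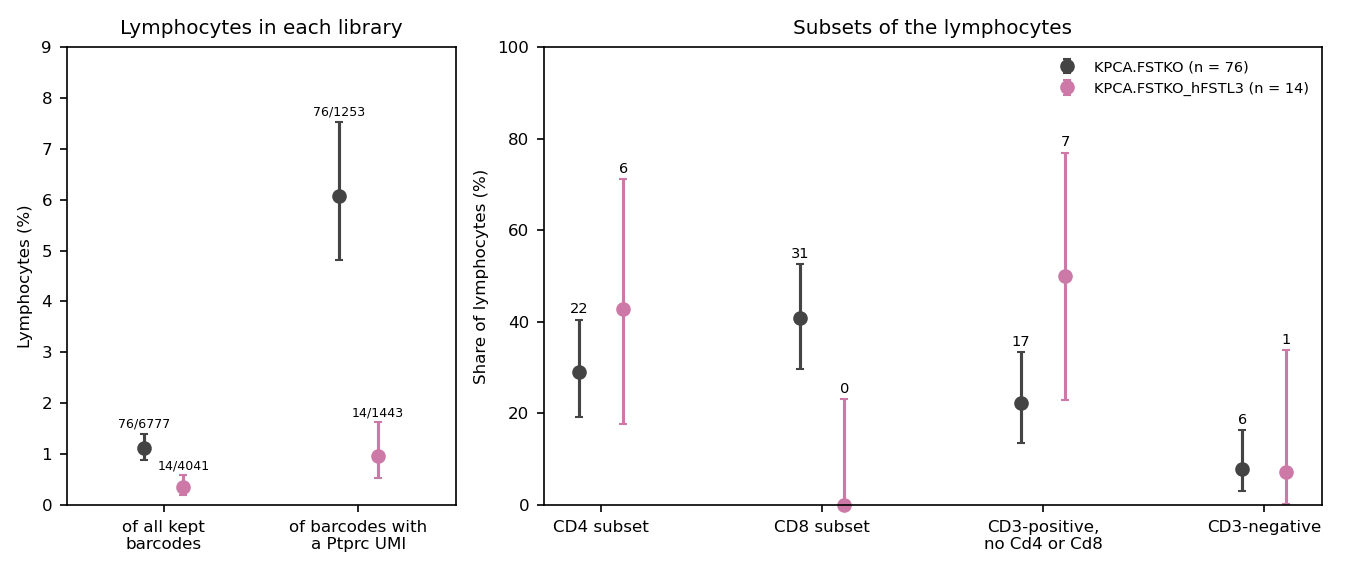
Lymphocytes as a percentage of kept barcodes and of barcodes with a Ptprc UMI (left) and subsets as a percentage of lymphocytes (right) in the KPCA.FSTKO and KPCA.FSTKO_hFSTL3 libraries, 1 library each. Bars are exact 95% intervals for counting error, numbers are cells, and the CD8 subset holds 31 cells in KPCA.FSTKO and 0 in KPCA.FSTKO_hFSTL3.

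Of 2297 genes measured, 88 (3.83%) were higher and 208 (9.06%) lower in the 14 cells than in the 76, with a median log2 ratio of 0.02. The interval of the ratio left out 1 for 88 and 175 (7.62%) of them. TMM moved the median by -0.15 and the split to 59 higher and 269 lower. Killing genes were lower in the KPCA.FSTKO_hFSTL3 lymphocytes. Of 10 cytotoxic genes 7 reached 50 UMIs and 6 were lower, and the whole list summed to 1015 CPM (832 to 1226) against 2122 CPM (1997 to 2253). Gzmb had 1 UMI against 149 (log2 ratio -4.95, -10.27 to -2.45), Prf1 had 0 against 82 (at least 5.68-fold lower) and Nkg7 28 against 430 (-1.67, -2.28 to -1.12). The exception was Gzma, with 61 UMIs against 3 (6.61, 5.00 to 8.93), of which 59 lay in 1 cell, and a log2 ratio of 1.78 without that cell. Pdcd1 was lower (9 against 132 UMIs, -1.61, -2.77 to -0.64), as were Havcr2 (2 against 59, -2.62, -5.70 to -0.70), Cd69 (-1.94), an early activation and residence gene, and Cxcr6 (-1.47), a chemokine receptor of tissue T cells. Of the 10 residence genes 4 reached 50 UMIs and were lower, and genes could reach it through the larger KPCA.FSTKO total alone (507062 against 105428 UMIs). Summed over the whole list they were at 474 CPM (352 to 625) against 785 CPM (710 to 866). Most of the T cell core list was within 2-fold, with 2 of 17 lower, 15 within 2-fold and a median of 0.0046, which the TMM shift would turn negative.

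Since these cells held no CD8 subset, the CD3-positive cells without Cd8 UMIs (13 against 39) were also compared, an alternative added after the data were seen. Nkg7 then changed sign and was within 2-fold (log2 ratio 0.23, -0.51 to 0.95). Gzmb, on too few UMIs for a call, had 1 UMI (9.79 CPM, 0.248 to 54.6) against 19 UMIs (interval 57.2 to 148 CPM), with 11 of the 19 in 1 cell. Pdcd1 had 9 UMIs in 4 of 13 cells and 56 in 22 of 39, and was still lower (-1.67, -2.87 to -0.64). So were Cd69 (-2.44), Cxcr6 (-1.68), Trbc1 (-1.75) and Cd3g (-1.02). Icos (-1.08) and Il18r1 (-1.22) were lower here but within 2-fold over all lymphocytes. By size Gzma, Il2ra, Ikzf2, Tnfrsf4 and Satb1 were higher. Ctla4 was at 1283 and 1195 CPM and did not differ beyond counting error (0.10, -0.22 to 0.42).

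Part of the regulatory T list was higher in the KPCA.FSTKO_hFSTL3 lymphocytes. Foxp3 had 29 UMIs in 7 of 14 cells, 275 CPM (184 to 395), against 17 UMIs in 7 of 76 cells, 33.5 CPM (19.5 to 53.7). At 46 UMIs it stayed under the 50 UMIs of the size rule, so no call is made, and 13 of the 29 lay in 1 cell. With each cell thinned to 1000 UMIs Foxp3 was seen in 0 of the 14 and 4 of the 76 cells (5.26%), and in a separate draw in 2 of the 6 CD4 cells of KPCA.FSTKO_hFSTL3, so at equal depth no order was detectable. In the cells without Cd8 UMIs it was at 284 CPM (190 to 408) against 85.0 CPM (49.5 to 136). Il2ra had 48 UMIs in 7 cells against 35 in 18 (log2 ratio 2.72, 2.06 to 3.39, and 3.23 without Cd8 cells), and Ikzf2 192 UMIs in 10 cells against 281 in 43 (1.72, 1.44 to 1.99, and 1.30 without Cd8 cells). Of 10 regulatory genes 6 reached 50 UMIs, with 3 higher and 3 within 2-fold. The third higher gene, Tnfrsf4 (1.35), rested on 1 cell with 60.2% of its UMIs and was at 0.19 without it. In the 14 cells the 7 with Foxp3 held 130 of the Ctla4 UMIs and 47 of the 48 Il2ra UMIs, of which 1 cell gave 60 and 21. The cell with 13 Foxp3 UMIs had 0 of Ctla4. The 7 cells were also deeper, with a median of 6049 UMIs against 3629.5 in the 6 other CD3-positive cells, and the part of depth was not tested.

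Pancreatic acinar genes, which lymphocytes are not known to use, were higher in the KPCA.FSTKO_hFSTL3 lymphocytes. Ctrb1 and Prss2, digestive enzyme precursors, were among the genes furthest above KPCA.FSTKO (log2 ratios 3.48 and 3.44) and were seen in 12 and 13 of the 14 cells. The list of 15 acinar genes gave 198 UMIs, 6 to 26 in each of the 14 cells (1878 CPM), against 61 UMIs in the 76 cells (120 CPM). Over all other barcodes it was at 7981 CPM in KPCA.FSTKO_hFSTL3 and 248 CPM in KPCA.FSTKO. Its part in the other differences was not tested. Other foreign lists were at or below their level in KPCA.FSTKO, with 23 macrophage UMIs (218 CPM), 11 cancer UMIs (104 CPM) and 11 stromal UMIs (104 CPM).

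**Figure D5:**
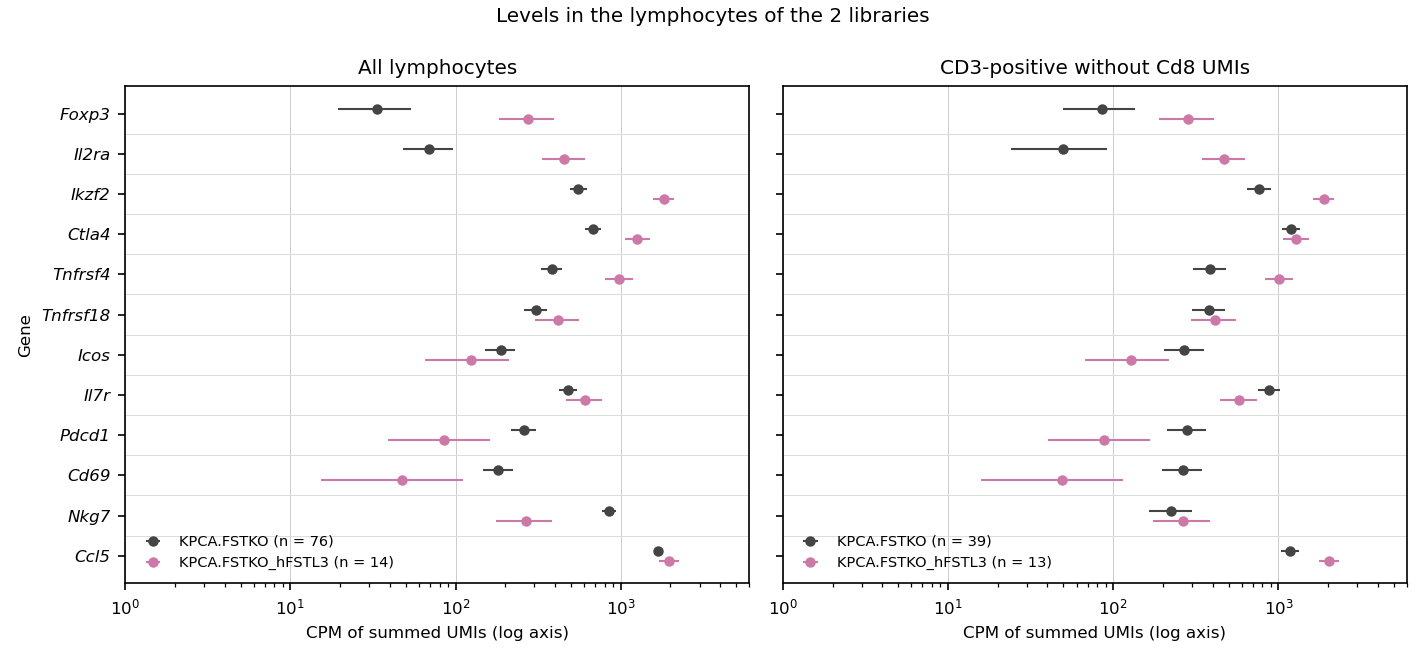
Level (CPM of summed UMIs, log axis) of 12 genes in the lymphocytes of KPCA.FSTKO and KPCA.FSTKO_hFSTL3, over all lymphocytes (left) and over CD3-positive cells without Cd8 UMIs (right). Bars are exact Poisson 95% intervals for counting error, Il2ra and Ikzf2 are higher and Pdcd1 and Cd69 lower in KPCA.FSTKO_hFSTL3 in both panels, Foxp3 lies above on too few UMIs for a call, and the Nkg7 difference is seen in the left panel alone.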

How the data were processed

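Single-cell 3′ libraries (10x Genomics) were made from 4 pooled tumors per genotype. The deposited matrices hold raw UMI counts per gene and barcode, made by the authors with Cell Ranger on mm10. The processing notes give version 3.1.0 and the matrix header 7.2.0. Barcodes with mitochondrial UMIs under 20% and 201 to 7999 genes were kept, the filter stated by the study, which reports as its cell numbers those of the barcodes in the files, 7582 and 4244, so that 6777 and 4041 were left. Members and gene lists were chosen with earlier results of these data known.

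UMIs were summed over cells and divided by the summed total (CPM). With 1 library per genotype no test was run. Shares carry exact Clopper-Pearson 95% intervals, CPM exact Poisson intervals and ratios conditional binomial intervals, with a floor of 3 (UMIs per side, or cells for a share) for 0 counts. Genes named are those of 27 fixed lists and, per comparison, the 10 largest and 10 smallest ratios at 50 UMIs or more and a ratio of at least 2. A few further genes were chosen after their values were seen (Gzmf, Themis, Penk, Runx1, Emb, Zfp36l1, Ifi27l2a, Inhba, Col3a1 and Trdc where no rule named them). C1q-rich barcodes had at least 5 C1q UMIs, at least 1 Ptprc UMI and less than 0.1% keratin UMIs. Keratin-rich barcodes had at least 0.1% keratin UMIs and fewer than 5 C1q UMIs. Barcodes that reached both the C1q and the keratin limit thus lie in neither class. In KPCA.FSTKO_hFSTL3 the classes and the lymphocytes together hold fewer barcodes than the 1443 with a Ptprc UMI. Each group of cells was thinned to 1000 UMIs per cell in a draw of its own, 1 draw per group, with 0 members left out, so subsets need not add up to the whole. Scrublet (scanpy 1.11.5) marked 90 barcodes (1.33%) of KPCA.FSTKO, 0 of them members, and only 1 in KPCA.FSTKO_hFSTL3, where it did not work. The ratio code was checked on simulated data. Scripts ran in R 4.3.3 with edgeR 4.0.16 (TMM scaling alone) and in Python 3.11.15 with pandas 2.3.3, scipy 1.17.1, matplotlib 3.10.9 and numpy 2.4.6. Alternatives changed filters, member and subset rules, size rule, scaling and weighting of cells.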

Additional observations from a re-analysis of the deposited data

How the results depend on the processing

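No paired analysis was possible because each genotype has 1 library and no test was run. Of 176 summary values under alternatives, 146 moved by less than their interval or 1.5 times and 30 moved more, and of 2957 values of single genes 9 changed sign, 165 moved out of their interval and 2783 stayed in it. With mitochondrial UMIs under 10%, the KPCA.FSTKO_hFSTL3 share was 0.803% (14 of 1743, 0.440 to 1.34), which overlaps that of KPCA.FSTKO. With at least 2 UMIs for the coreceptors the CD4 subset was 14.5% (11 of 76). When CD3-negative cells also had to lack T cell receptor UMIs, 0 cells were left, so that comparison has no value. Counts followed the size rule. At a ratio of 1.5 the higher and lower genes were 205 and 241 for CD8 over CD4, 346 and 548 for CD3-negative over CD3-positive, and 347 and 439 between libraries. At 20 UMIs they were 393 and 345, 516 and 1187, and 334 and 767, and at 100 UMIs 32 and 31, 33 and 75, and 34 and 54. TMM gave 40 and 581 for CD3-negative cells, and over all lymphocytes against other barcodes it moved the median by -0.28 and the split from 3042 and 5479 to 2368 and 6163. Without the 5% deepest cells 138 of 1797 measured genes were lower in KPCA.FSTKO_hFSTL3, and averaging CPM per cell turned Tnf (-0.25). The causes were not tested.

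Alternatives added after seeing the data gave these values. With intervals that leave out 1, 1957 genes were lower in lymphocytes and 75 in CD3-negative cells. With each gene counted without its top cell, 51 genes were lower in CD8 cells, 40 higher in CD3-negative cells and 37 higher in KPCA.FSTKO_hFSTL3. Then Egr1 (0.71), Ccl1 (-0.21) and Col3a1 (2.57) changed sign between CD8 and CD4 cells, Hba-a1 (3.89) in CD3-negative cells, and Hist1h1b (-2.82), Hba-a1 (1.22) and Hbb-bs (0.63) between libraries. In CD3-positive cells without Cd8 UMIs 73 of 998 measured genes were lower and Nkg7 was at 0.23. Leaving out the cell rich in Hbb-bs was tried for the subset shares, the CD3-negative comparison and the comparison of libraries. It changed no summary value of these by more than its interval or 1.5 times.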
